A study of Mus musculus with 16 samples.

Results

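Matrin-3 and 9 nuclear RNA-binding proteins known to work with it were followed across the livers of 16 mice. These 10 genes (Matr3, Ptbp1, Ptbp2, Hnrnpl, Hnrnpm, Hnrnpk, Sfpq, Nono, Pspc1 and Dhx9) were chosen by known function, and each was present among the 23167 gene identifiers shared by the count tables of males and females. The livers came from liver-specific matrin-3 knockout mice (LKO), which carry floxed Matr3 alleles and Cre recombinase under the albumin promoter, and from mice labelled floxed, for which the labels name no Cre. There were 4 groups with 4 livers in each and 1 poly(A) library per mouse: male LKO, male floxed, female LKO and female floxed. All mice ate a high-fat diet (60 kcal% fat), begun at 7 weeks of age and kept up for 16 weeks, and fasted for 12 hours before the liver was taken. Libraries are named by sex, genotype and number, LKO 5 to 8 and floxed 1 to 4 in each sex. The albumin promoter is active in hepatocytes, and the labels give no measure of how completely the allele was recombined in these or in the other cells of the liver.

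Matrin-3 is an abundant protein of the nuclear matrix that binds RNA through its RNA recognition motifs and takes part in alternative splicing and in the retention of edited RNA in the nucleus. It binds the polypyrimidine tract-binding proteins PTBP1 and PTBP2 directly and is found in complexes with heterogeneous nuclear ribonucleoproteins (hnRNPs), with the paraspeckle proteins SFPQ, NONO and PSPC1, and with the RNA helicase DHX9. PTBP1 is the form of most tissues and PTBP2 that of neurons, and PTBP1 holds PTBP2 down by making its transcript skip an exon. SFPQ, NONO and PSPC1 pair with each other and assemble on the long non-coding RNA Neat1.

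Several of the 10 are paralogs, and their counts are of use only if reads can be told apart between them. In the coding sequences of the annotated transcripts of the mouse mm10 assembly, the longest run of identical bases was 14 bases between Ptbp1 (chromosome 10) and Ptbp2 (chromosome 3). It was 22 bases between Sfpq (chromosome 4) and Nono (chromosome X), and 17 bases between Nono and Pspc1 (chromosome 14). These 3 runs are shown with 30 bases on either side, 5′ to 3′ on the coding strand, and the capitals mark the shared run.
Ptbp1: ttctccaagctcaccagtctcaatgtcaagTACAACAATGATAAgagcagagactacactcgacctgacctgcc
Ptbp2: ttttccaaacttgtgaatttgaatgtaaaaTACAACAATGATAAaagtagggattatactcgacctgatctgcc
Sfpq: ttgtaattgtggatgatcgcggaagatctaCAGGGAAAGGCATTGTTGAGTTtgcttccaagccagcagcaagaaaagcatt
Nono: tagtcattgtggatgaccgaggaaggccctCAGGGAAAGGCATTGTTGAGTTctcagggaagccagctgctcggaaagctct
Nono: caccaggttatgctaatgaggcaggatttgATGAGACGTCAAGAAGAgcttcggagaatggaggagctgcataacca
Pspc1: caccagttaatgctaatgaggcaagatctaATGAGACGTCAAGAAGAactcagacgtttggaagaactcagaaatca
No stretch of 50 bases in the annotated transcripts of a member occurred in those of another member. Other genes did share such stretches: 16.6% of those of Matr3 also lay in another annotated gene, mostly in Gm28285, an overlapping model on the same strand that is in neither table. The shares were 14.98% for Nono, 14.5% for Hnrnpk, 13.5% for Hnrnpm (all with the overlapping gene March2), 4.75% for Ptbp1, 4.31% for Sfpq, 1.48% for Hnrnpl and 0.214% for Dhx9. For Ptbp2 and Pspc1 the share was 0. Exons of Matr3, Ptbp1, Hnrnpl and Hnrnpk also overlap genes on the opposite strand, and the strand setting of the counting is not given in the sources used here, so a part of these counts may belong to the overlapping genes.

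The libraries held 30495505 to 36496193 counts assigned to genes. All 6 hepatocyte markers (Alb, Ttr, Apoa1, Hnf4a, Cps1 and Asgr1) were found in every library. In females their summed level did not overlap between groups, at 27949 to 44911 CPM (counts scaled to library size) in LKO and 53740 to 62814 CPM in floxed livers, and 7 markers of sinusoidal endothelial cells summed to 167 to 213 CPM in LKO and 238 to 253 CPM in floxed livers. Of the 6 hepatocyte markers edgeR called 1 higher and 2 lower in female LKO livers, with a median log2 fold change of 0.18, and of the 7 endothelial markers 4 lower, with a median of -0.57. Of all genes tested in females 9.29% were called, and 8.16% lay lower in LKO livers without overlap. In males the hepatocyte and endothelial sums overlapped between the groups. There 4 adipocyte markers summed to 52.9 to 83.2 CPM in LKO and 24.6 to 37.9 CPM in floxed livers, with Adipoq and Plin1 at 0 in at least 1 library of each group. Of these 4 markers 2 were tested in males and edgeR called 0, with a median log2 fold change of 0.94. In females the adipocyte sums overlapped. Summed markers of Kupffer cells, stellate cells, cholangiocytes, lymphocytes and neutrophils overlapped between genotypes in both sexes. In female LKO livers edgeR called 2 of 6 stellate cell markers lower (median log2 fold change -0.15) and 1 of 5 cholangiocyte markers lower (median -0.31). For Kupffer cells, lymphocytes and neutrophils in females it called 0, with medians of 0.34, -0.31 and 1.31. In males 0 markers of any of these cell types were called. None of the hepatocyte or endothelial markers was at 0 in any library, and the part of these marker levels in the results on females or males was not tested. On the first principal component of the female libraries (47.2% of the variance), floxed 4 (-9.91) and LKO 7 (6.17) lay between the other floxed (-38.5 to -32.6) and the other LKO livers (31.4 to 40.7). Male floxed 1 and 2 carry mouse numbers far from all others in the series. Results whose call changes without either pair of livers are also given without it. The female pair stands apart on a component of these same libraries, between the genotypes. Calls gained without the female pair are therefore no independent support.

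Matr3, the deleted gene, was lower in LKO livers of both sexes. Matr3 (ENSMUSG00000037236, chromosome 18, 35562138 to 35593835, plus strand, mm10) measured 33.8, 37.3, 36.9 and 34.3 CPM in male LKO 5 to 8, against 55.6, 53.8, 61.9 and 59.9 CPM in male floxed 1 to 4. In females it measured 39.8, 36.2, 37.2 and 38.5 CPM in LKO 5 to 8, against 52.3, 64.3, 56.3 and 59.5 CPM in floxed 1 to 4. Every LKO liver lay below every floxed liver of its sex, and the groups of LKO males and LKO females overlapped. Such a separation was found for 3.93% of tested genes in males and 8.16% in females. The LKO mean was 61.5% of the floxed mean in males (35.6 ± 1.77 and 57.8 ± 3.76 CPM, SD, n = 4 each) and 65.3% in females (37.9 ± 1.55 and 58.1 ± 5.08 CPM, SD, n = 4 each).

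In the edgeR quasi-likelihood test the log2 fold change of Matr3, LKO over floxed, was -0.71 in males (SE 0.06, adjusted p = 0.000807) and -0.61 in females (SE 0.08, adjusted p = 0.00437). Over both sexes it was -0.66 (SE 0.05, edgeR adjusted p = 7.68e-07), the fifth smallest p of 16126 genes, in a comparison that called 8.55% of genes. An exact permutation test in each sex gave p = 0.0286, two-sided, the smallest that 70 regroupings of 4 and 4 livers allow. The effects differed between females and males by 0.10 on the log2 scale (95% interval -0.11 to 0.30, edgeR adjusted p = 0.628). Among the 3154 genes at least as abundant as Matr3 in males, 19 had a lower log2 fold change, and among 3023 such genes in females 157 had one. In these bulk samples fewer cells of a type and less RNA per cell cannot be told apart, and counts per gene do not separate deleted from retained exons.

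**Figure D1:**
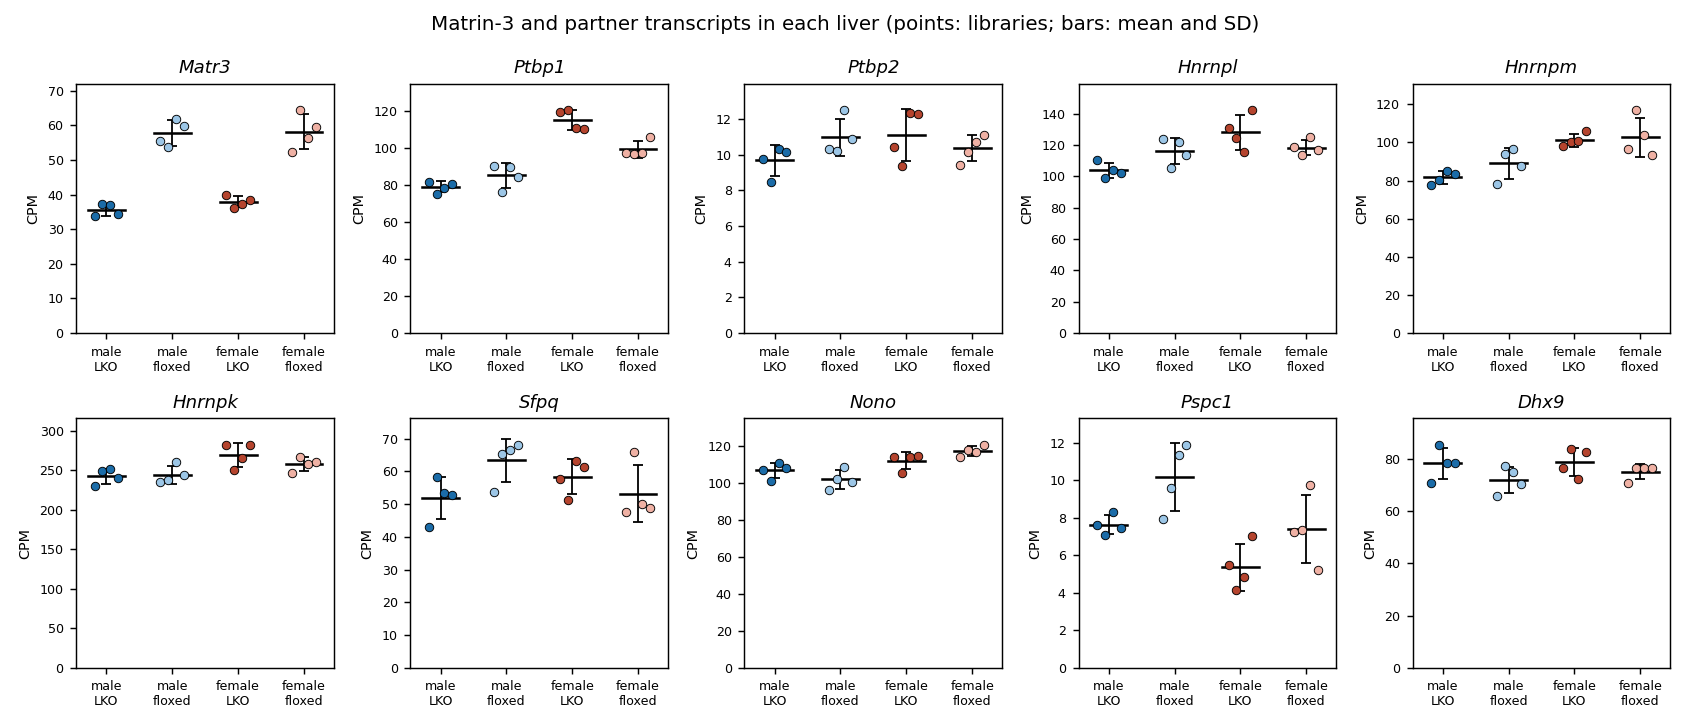
CPM (counts scaled to library size by TMM over all 16 libraries) of each of the 10 genes in every liver, with points for libraries and bars for the group mean and SD (n = 4). Matr3 lies between 33.8 and 39.8 CPM in the 8 LKO livers and between 52.3 and 64.3 CPM in the 8 floxed livers, while for the partners the groups of a sex overlap except for Ptbp1 in females.

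Matr3 was also lower relative to its partners within each library of LKO liver. The ratio of Matr3 to the geometric mean of the 9 partners, in which the library's scale cancels, was 0.626, 0.680, 0.640 and 0.610 in male LKO 5 to 8 and 0.986, 0.907, 0.950 and 0.973 in male floxed 1 to 4. In females it was 0.648, 0.633, 0.617 and 0.584 in LKO 5 to 8 and 0.904, 1.02, 0.897 and 1.02 in floxed 1 to 4. All 8 LKO livers lay below all 8 floxed livers. The difference of the mean log2 ratio was -0.58 in males and -0.63 in females, with an exact permutation p = 0.0286 (two-sided, n = 4 each) in each sex, again the smallest possible. The geometric mean of the partners itself was 55.7 ± 1.58 CPM in LKO and 60.6 ± 3.71 CPM in floxed males, and 61.2 ± 3.61 CPM in LKO and 60.5 ± 2.70 CPM in floxed females (SD, n = 4 each).

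**Figure D2:**
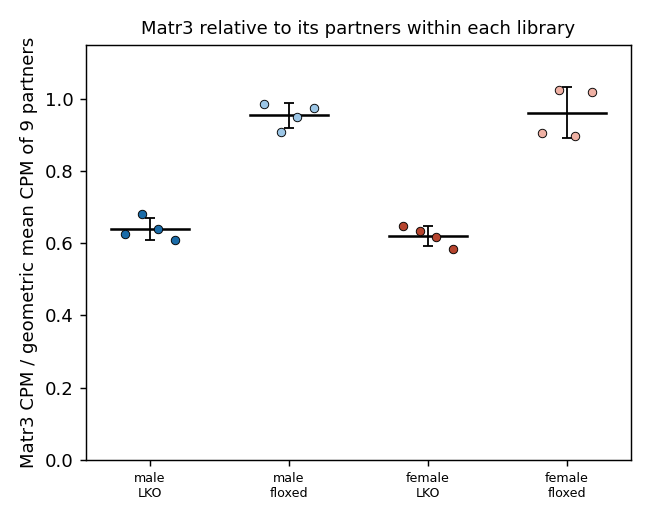
Ratio of Matr3 CPM to the geometric mean CPM of its 9 partners in each library, with points for libraries and bars for the group mean and SD (n = 4). The 8 LKO livers lie between 0.584 and 0.680 and the 8 floxed livers between 0.897 and 1.02.

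None of the 9 partners passed an edgeR adjusted p of 0.05 in males, where 1.04% of 15355 genes did, or in females, where 9.29% of 15432 genes did. At an unadjusted p under 0.05 there were 3 partners in males (Hnrnpl, Sfpq and Pspc1) and 2 in females (Ptbp1 and Pspc1), against 12.3% and 27.7% of all genes. DESeq2 called 0 partners in males, beside 518 of 15355 genes, and 1 in females (Ptbp1), beside 2415 of 15432 genes. With limma-voom 0 partners were called in either sex. The median log2 fold change of the 9 partners was -0.13 in males and 0.07 in females, beside -0.01 and 0.00 over all genes tested. Over both sexes 1 of 9 partners was called (Pspc1, lower), in a comparison that called 4.50% of genes as lower. The partners are described in turn by their role.

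Ptbp1, the polypyrimidine tract-binding protein that represses exons and binds matrin-3 directly, was the partner that separated the groups in females. It measured 119.7, 120.3, 111 and 110.4 CPM in female LKO 5 to 8, against 97.4, 96.6, 97.3 and 106 CPM in female floxed 1 to 4. All 4 LKO livers lay above all 4 floxed livers. Of the genes tested in females, 7.68% separated in this direction and 8.16% in the opposite one. The log2 fold change was 0.22 (SE 0.07, 95% interval 0.06 to 0.38), and the edgeR adjusted p of 0.0881 missed the threshold. It passed with DESeq2 (adjusted p = 0.0236), in a fit of all 16 libraries (edgeR adjusted p = 0.0307) and without female floxed 4 and LKO 7 together (log2 fold change 0.28, edgeR adjusted p = 0.0426). These settings called more genes in all: 2415 of 15432, 2854 of 16126 and 3028 of 15457 in that order, beside 1433 of 15432 as reported. In males Ptbp1 measured 81.7, 75.1, 78.6 and 80.8 CPM in LKO 5 to 8 and 90.4, 76.1, 89.9 and 84.2 CPM in floxed 1 to 4, and the groups overlapped (log2 fold change -0.11, edgeR adjusted p = 0.565).

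The difference of the Ptbp1 effects, female minus male, was 0.33 on the log2 scale (95% interval 0.13 to 0.53) with an edgeR adjusted p of 0.0541, in a comparison that called 4.42% of 16126 genes and 0 of the 10 genes described here. At an unadjusted p under 0.05 this comparison held 3 partners, Ptbp1, Hnrnpl and Sfpq. The Ptbp1 difference passed with DESeq2 (adjusted p = 0.0132) and without female floxed 4 and LKO 7 together (edgeR adjusted p = 0.0194), and without male floxed 2 (0.0326), female floxed 4 (0.0306) or female LKO 7 (0.0412) alone. In this comparison DESeq2 called 1358 of 16126 genes, beside 713 of 16126 as reported. Without the female pair 2030 of 16268 were called, without female floxed 4 alone 1134 and without female LKO 7 alone 1435. Over the 16 omissions of 1 library the adjusted p of the Ptbp1 difference lay between 0.0306 and 0.113. With limma-voom 0 of the 10 genes passed this comparison and with DESeq2 1 did.

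Ptbp2, the neuronal paralog whose transcript PTBP1 restrains, was scarce. Over the 16 livers it ranged from 8.45 to 12.5 CPM (277 to 420 counts), and the groups overlapped in both sexes. Its mean was 9.68 ± 0.86 CPM in LKO and 10.97 ± 1.06 CPM in floxed males, and 11.1 ± 1.46 CPM in LKO and 10.4 ± 0.73 CPM in floxed females (SD, n = 4 each). For Ptbp2 the log2 fold change was -0.18 in males (95% interval -0.40 to 0.03) and 0.10 in females (-0.15 to 0.35). Per kb of exon, Ptbp1 exceeded Ptbp2 by 15.9 ± 1.09-fold in LKO and 15.1 ± 1.33-fold in floxed males, and by 20.5 ± 3.71-fold in LKO and 18.6 ± 1.00-fold in floxed females (SD, n = 4 each). Within each sex the ranges of this ratio overlapped between genotypes.

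Hnrnpl, which binds CA-rich RNA and regulates splicing, measured 110.1, 98.6, 104 and 102 CPM in male LKO 5 to 8 and 124, 106, 122 and 114 CPM in male floxed 1 to 4. In males 3 of 4 LKO livers lay below all floxed livers, and LKO 5 lay above floxed 2. The log2 fold change in males was -0.17 (95% interval -0.32 to -0.02, edgeR adjusted p = 0.340). In females Hnrnpl measured 131, 125, 115 and 142 CPM in LKO 5 to 8 and 118, 113, 125 and 116 CPM in floxed 1 to 4, with a log2 fold change of 0.12 (-0.06 to 0.30). The effects differed by 0.29 between females and males (0.07 to 0.50, edgeR adjusted p = 0.114), and this difference passed the threshold without female LKO 7 (edgeR adjusted p = 0.0472).

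Hnrnpm and Hnrnpk showed no separation by genotype. Hnrnpm, a splicing regulator that binds GU-rich RNA, averaged 81.7 ± 3.37 CPM in LKO and 89.1 ± 8.05 CPM in floxed males, and 101 ± 3.31 CPM in LKO and 103 ± 10.3 CPM in floxed females (SD, n = 4 each). Its log2 fold change was -0.13 in males (95% interval -0.28 to 0.02) and -0.02 in females (-0.20 to 0.16). Hnrnpk, a KH-domain protein that binds C-rich RNA and also belongs to paraspeckles, ranged from 230.3 to 282 CPM over the 16 livers, the narrowest spread of the 10 genes (highest over lowest 1.22). Its log2 fold change was -0.01 in males (95% interval -0.14 to 0.11) and 0.07 in females (-0.10 to 0.24). In females the sign for Hnrnpk turned under scaling to library totals (-0.01).

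The paraspeckle proteins SFPQ, NONO and PSPC1 form 1 family, and of their transcripts Pspc1 was the one called, lower in LKO livers over both sexes. Pspc1, paraspeckle component 1, measured 7.64, 7.10, 8.32 and 7.45 CPM in male LKO 5 to 8, against 7.91, 9.57, 11.4 and 11.9 CPM in male floxed 1 to 4. In females it measured 5.46, 4.12, 4.84 and 7.05 CPM in LKO 5 to 8, against 7.26, 7.37, 9.73 and 5.24 CPM in floxed 1 to 4. In males 3 of 4 LKO livers lay below all floxed livers and in females 2 of 4 did, with female floxed 4 within the range of the female LKO group. These levels rest on 131 to 382 counts per library.

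Over both sexes Pspc1 fell by 26.2% (95% interval -38.7% to -11.1%; log2 fold change -0.44, SE 0.13, edgeR adjusted p = 0.0420). The change was -0.42 in males (SE 0.13, edgeR adjusted p = 0.181) and -0.46 in females (SE 0.21, edgeR adjusted p = 0.179), and the effects differed by -0.04 (95% interval -0.57 to 0.50; 0.15 without male floxed 1 and 2 together). The call over both sexes was lost without any 1 of 13 libraries: male floxed 2, 3 or 4 and male LKO 5 to 8 (edgeR adjusted p 0.0515 to 0.0864), and female floxed 1, 2 or 3 and female LKO 5, 6 or 7 (0.0507 to 0.0881). It was kept without male floxed 1, female floxed 4 or female LKO 8, and lost without a filter on low counts (0.0502). Without male floxed 1 and 2 together Pspc1 was called in males alone (log2 fold change -0.61, edgeR adjusted p = 0.0250) and stayed called over both sexes.

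Sfpq, a splicing factor rich in proline and glutamine, measured 43.0, 58.5, 53.5 and 52.7 CPM in male LKO 5 to 8 and 53.7, 65.5, 66.6 and 68.1 CPM in male floxed 1 to 4. In females it measured 57.8, 51.2, 63.2 and 61.4 CPM in LKO 5 to 8 and 47.6, 66.1, 50.1 and 48.8 CPM in floxed 1 to 4. Floxed 1 was the low floxed male and floxed 2 the high floxed female, and either made the groups overlap. The log2 fold change was -0.29 in males (95% interval -0.52 to -0.07, edgeR adjusted p = 0.241) and 0.14 in females (-0.11 to 0.39, edgeR adjusted p = 0.454). The effects differed by 0.44 (0.10 to 0.78, edgeR adjusted p = 0.130) and the difference passed without female floxed 2 (0.55, edgeR adjusted p = 0.0452).

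Nono, which pairs with SFPQ, averaged 107 ± 4.03 CPM in LKO and 102 ± 5.09 CPM in floxed males, and 112 ± 4.46 CPM in LKO and 117 ± 2.69 CPM in floxed females (SD, n = 4 each). The groups overlapped in both sexes, and the log2 fold change was 0.06 in males (95% interval -0.06 to 0.19) and -0.06 in females (-0.21 to 0.09). Over both sexes it was 0.00 (-0.08 to 0.08), with a sign that turned negative under upper quartile scaling, library totals, a filter of 1 CPM and without male floxed 1 and 2 together. Per kb of exon the Nono to Pspc1 ratio was 17.4 to 19.0 in LKO and 11.1 to 15.9 in floxed males, without overlap. In females it was 21.2 to 33.5 in LKO and 15.7 to 30.1 in floxed livers, with overlap. The Sfpq to Pspc1 ratio overlapped in males (6.81 to 9.95 in LKO, 6.93 to 8.27 in floxed livers) and in females. The Sfpq to Nono ratio also overlapped in males (0.370 to 0.533 in LKO, 0.515 to 0.624 in floxed livers) and in females. No test of these ratios was made, and how often ratios of other gene pairs separate the groups was not counted.

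Dhx9, the helicase that unwinds double-stranded RNA, averaged 78.4 ± 5.86 CPM in LKO and 72.1 ± 4.99 CPM in floxed males, and 78.8 ± 5.39 CPM in LKO and 75.2 ± 2.79 CPM in floxed females (SD, n = 4 each). In males 3 of 4 LKO livers lay above all floxed livers and in females 2 of 4 did. Its log2 fold change was 0.12 in males (95% interval -0.04 to 0.27), 0.07 in females (-0.09 to 0.24) and 0.09 over both sexes (-0.01 to 0.20, edgeR adjusted p = 0.247). In females it was -0.01 under scaling to library totals.

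**Figure D3:**
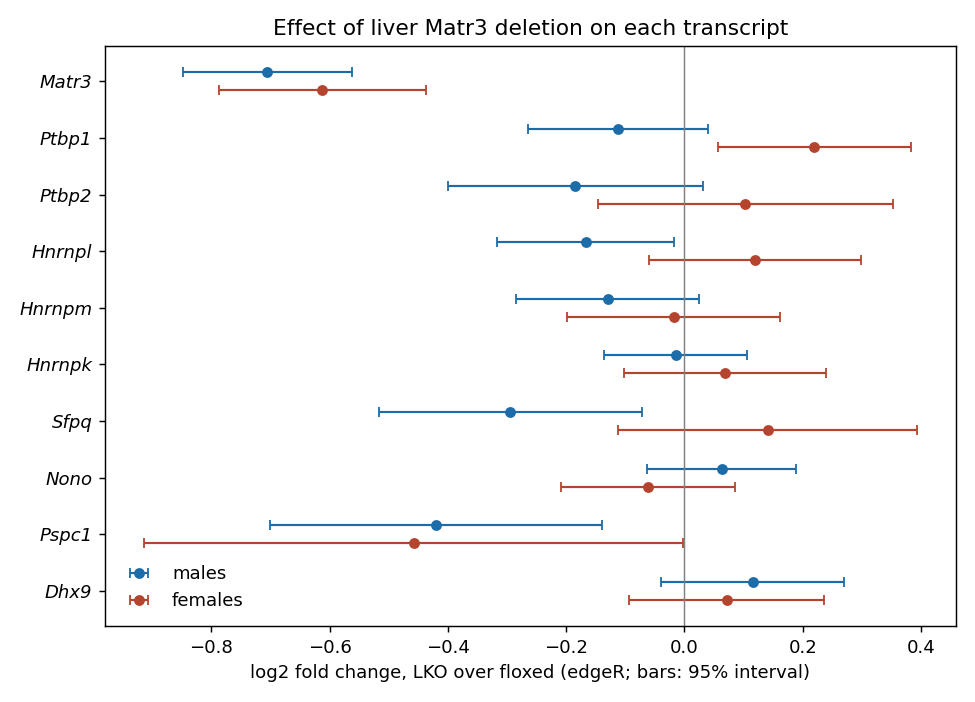
Log2 fold change of each gene, LKO over floxed, from edgeR in males (blue) and females (red), with bars for the 95% interval. Matr3 lies at -0.71 in males and -0.61 in females, and of the partners Pspc1 lies lowest at -0.42 in males and -0.46 in females.

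Floxed females and floxed males differed in 2 of the 9 partners, Ptbp1 and Nono, both higher in females, in a comparison that called 22.9% of 16126 genes and 11.3% as higher. Sex and deposited table cannot be told apart here. Ptbp1 measured 96.6 to 106 CPM in floxed females and 76.1 to 90.4 CPM in floxed males, and Nono 114 to 120.4 CPM in floxed females and 96.2 to 109 CPM in floxed males. Neither pair of groups overlapped, as was so for 24.0% of genes. The log2 fold change, female over male, was 0.20 for Nono (SE 0.05, edgeR adjusted p = 0.0144), and the call held in all 16 omissions of 1 library but was lost without male floxed 1 and 2 together (0.17, edgeR adjusted p = 0.123). For Ptbp1 it was 0.22 (SE 0.07, edgeR adjusted p = 0.0237), and the call was lost without male floxed 2 (0.0916), male floxed 4 (0.0512) or female floxed 4 (0.0796), without female floxed 4 and LKO 7 together (0.0766) and without male floxed 1 and 2 together (0.0991). Hnrnpm, at 93.6 to 117 CPM in floxed females and 78.3 to 96.5 CPM in floxed males, just missed the threshold (0.21, edgeR adjusted p = 0.0550). It passed in 5 of 11 alternatives other than the omission of 1 library, among them without female floxed 4 and LKO 7 together (0.24, edgeR adjusted p = 0.0440). Pspc1 was at -0.46 (95% interval -0.83 to -0.08, edgeR adjusted p = 0.0723), and passed as lower without male floxed 1 and 2 together (-0.65, edgeR adjusted p = 0.0430) and without male floxed 1, female floxed 3 or female LKO 8 (0.0207 to 0.0486). Matr3 did not differ by sex beyond its spread (0.01, 95% interval -0.13 to 0.15).

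Levels between genes were compared per kb of exon, over the union of annotated exons, which understates genes whose long annotated forms are little used. The mean over 16 livers was 39.2 CPM per kb for Hnrnpk, 25.0 for Nono, 19.98 for Ptbp1, 19.6 for Hnrnpl, 12.0 for Sfpq, 11.8 for Hnrnpm, 7.93 for Dhx9, 4.66 for Matr3, 1.33 for Pspc1 and 1.148 for Ptbp2. Matr3 held 3.33 to 3.91 CPM per kb in LKO and 5.15 to 6.33 CPM per kb in floxed livers, and kept its eighth place in both. Neighbours in this order whose ranges over the 16 livers overlapped were Nono and Ptbp1, Ptbp1 and Hnrnpl, Sfpq and Hnrnpm, and Pspc1 and Ptbp2. Among 16114 genes ranked by mean CPM per kb, Hnrnpk stood at percentile 92.8, Matr3 at 64.1, Pspc1 at 37.9 and Ptbp2 at 35.4.

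**Figure D4:**
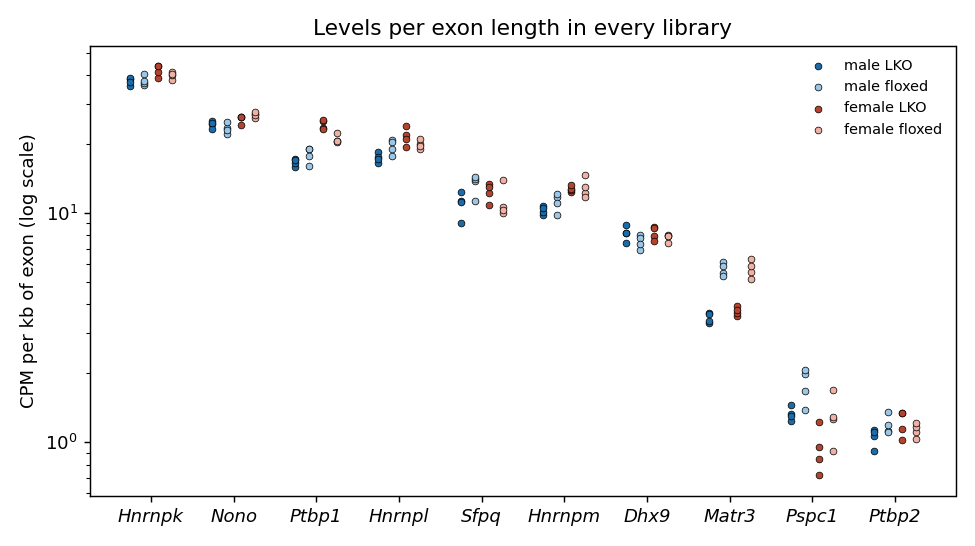
CPM per kb of exon (log axis) of each gene in every library, ordered by the mean over 16 libraries, with the 4 groups side by side. Hnrnpk is highest at a mean of 39.2 and Ptbp2 lowest at 1.148, and Matr3 is the gene whose LKO livers lie apart from its floxed livers in both sexes.

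Within groups, most pairs of members deviated from their means in the same direction from liver to liver. After subtraction of each group's mean log2 CPM, 36 of the 45 pairs of genes had a Pearson r above 0 over the 16 libraries, with a median of 0.31, and 10 pairs were above 0.5. The highest were Ptbp2 with Nono (r = 0.84, Spearman rho = 0.83), Matr3 with Hnrnpk (r = 0.83, rho = 0.85) and Hnrnpm with Sfpq (r = 0.75, rho = 0.61). Without the 2 libraries farthest from the median of the first gene these were 0.73, 0.85 and 0.53. The lowest were Ptbp1 with Sfpq (r = -0.54), Ptbp1 with Hnrnpm (-0.45) and Hnrnpl with Sfpq (-0.43). Matr3 with Hnrnpk was at 0.89 in males and 0.78 in females, but Ptbp1 with Hnrnpl was at 0.94 in males and -0.10 in females. The values of a pair share a library, its depth and its scaling, and they are given as a description with no test. Pairs of other genes were not compared, so this covariation is not shown to be particular to the 10 genes.

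**Figure D5:**
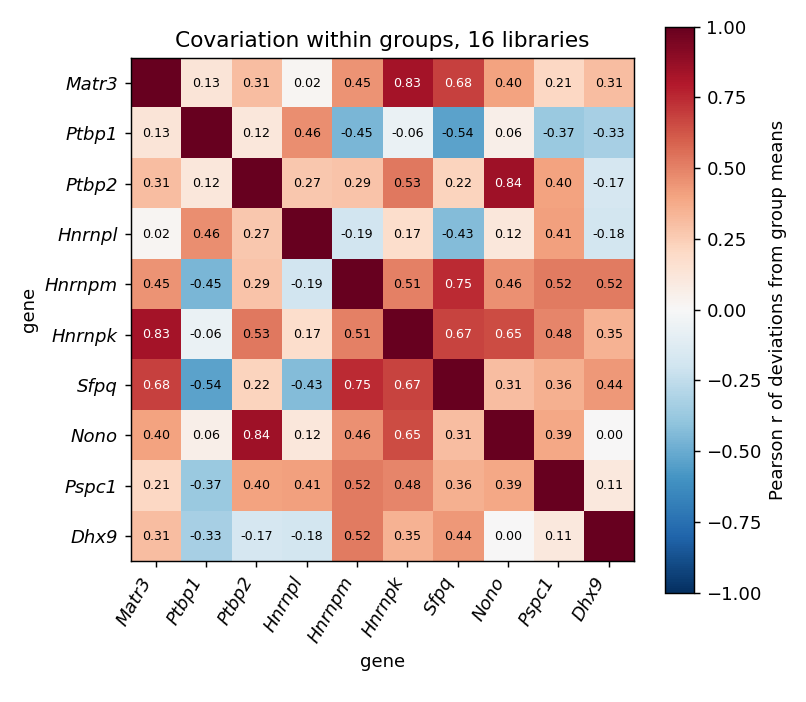
Pearson r between the 10 genes of the deviations of log2 CPM from the group means, over 16 libraries, with the value in each cell. Matr3 is at 0.83 with Hnrnpk and 0.68 with Sfpq, while Ptbp1 is at -0.54 with Sfpq.

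Outside the 10 genes, those whose log2 CPM was most like that of Matr3 over the 16 libraries, of 10841 genes compared, were Klhl7 (r = 0.961), Oxr1 (0.958), Asb3 (0.957), Dcaf8 (0.952) and Ascc3 (0.949). This r carries the genotype difference, and the deviations within groups gave 0.74 for Klhl7, 0.56 for Oxr1, 0.29 for Asb3, -0.05 for Dcaf8 and 0.60 for Ascc3. The choice by likeness to Matr3 over both genotypes favours genes that are lower in LKO livers. All 5 were lower in LKO livers of both sexes in edgeR, which is therefore no separate result. Their log2 fold changes lay between -1.20 (Dcaf8) and -0.59 (Oxr1) in males and between -1.21 (Dcaf8) and -0.48 (Oxr1) in females.

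Transcripts of the wider machinery around matrin-3 were counted in lists, beside calls for 1.04% of all genes in males, 9.29% in females and 8.55% over both sexes, and an unadjusted p under 0.05 for 12.3% in males. DESeq2 called 518 of all 15355 genes tested in males, and its counts for the lists are to be read beside that number. Of 30 other paraspeckle components edgeR called 0 in males (6 at an unadjusted p under 0.05 and 1 with DESeq2) and of 23 other hnRNPs 0 (3 at an unadjusted p under 0.05 and 0 with DESeq2), while 1 gene was lower in females and over both sexes, Hnrnph3, a splicing regulator of the hnRNP H family that both lists hold. Hnrnph3 had a log2 fold change of -0.45 in females (SE 0.07, edgeR adjusted p = 0.00823) and -0.35 over both sexes (SE 0.06, edgeR adjusted p = 0.00227), and both calls held without any 1 library. In males it was -0.24 (edgeR adjusted p = 0.298). No other gene of the hnRNP list was called in males, in females or over both sexes. The median log2 fold change of the paraspeckle list was -0.07 in males and 0.02 in females, and that of the hnRNP list -0.06 in males and -0.05 in females.

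Neat1, the RNA on which paraspeckles are built, averaged 452 ± 64.2 CPM in LKO and 601 ± 73.9 CPM in floxed males, and 775 ± 82.8 CPM in LKO and 666 ± 234 CPM in floxed females (SD, n = 4 each). The log2 fold change was -0.42 in males (edgeR adjusted p = 0.143; called as lower with DESeq2, -0.41, adjusted p = 0.0252) and 0.22 in females (edgeR adjusted p = 0.568), and the difference of the effects was 0.64 (edgeR adjusted p = 0.207). Malat1, a non-coding RNA of nuclear speckles, averaged 346 ± 25.0 CPM in LKO and 432 ± 39.7 CPM in floxed males, and 248 ± 32.9 CPM in LKO and 316 ± 43.0 CPM in floxed females (SD, n = 4 each). It fell over both sexes (log2 fold change -0.33, SE 0.08, edgeR adjusted p = 0.0153), a call that held in all 16 omissions of 1 library. In single sexes edgeR did not call Malat1, at -0.32 in males (edgeR adjusted p = 0.103) and -0.35 in females (edgeR adjusted p = 0.110). It passed in males with DESeq2 (adjusted p = 0.0136), which called 518 of 15355 genes there. In females Malat1 passed in the fit of 16 libraries (edgeR adjusted p = 0.0400), without floxed 4 (0.0461) and without floxed 4 and LKO 7 together (log2 fold change -0.43, edgeR adjusted p = 0.0495). The fit of 16 libraries called 2854 of 16126 genes in females, and 3028 of 15457 were called without that pair, beside 1433 of 15432 as reported.

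Of 17 nuclear proteins that bind or process double-stranded RNA edgeR called 0 in males (2 at an unadjusted p under 0.05 and 1 with DESeq2). It called 1 in females, beside 9.29% of all genes, and 1 over both sexes, beside 8.55%. This was Dhx36, a helicase of G-quadruplex RNA, higher in both comparisons. Its log2 fold change was 0.49 in females (SE 0.12, edgeR adjusted p = 0.0322) and 0.28 over both sexes (SE 0.07, edgeR adjusted p = 0.0245). The call of Dhx36 in females was lost without any 1 of female floxed 1, 2 or 3 and LKO 5 or 8 (edgeR adjusted p 0.0701 to 0.0931) and under library totals (0.0537). That over both sexes was lost without any 1 of male LKO 6, female floxed 1 or 2 and female LKO 5 or 8 (0.0504 to 0.0572), without male floxed 1 and 2 together (0.0665) and under library totals (0.0514). Of the splicing regulators related to PTB, edgeR called 0 of 16 tested in males (2 at an unadjusted p under 0.05 and 0 with DESeq2) and 1 of 17 in females, Srrm4, a microexon activator known from neurons, at 1.505 (SE 0.37, edgeR adjusted p = 0.0356). The call of Srrm4 was lost without any 1 of female floxed 1 or 2 and LKO 5, 6 or 8 (edgeR adjusted p 0.0652 to 0.103), with limma-voom (0.0614) and with robust dispersion (0.0744).

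Of 18 components of the nuclear matrix and lamina edgeR called 0 in males (4 at an unadjusted p under 0.05 and 1 with DESeq2). In females it called 2 of 18, beside 9.29% of all genes. These were 2 lamins that moved in opposite directions. Lmna, encoding lamins A and C, was higher in LKO livers (log2 fold change 0.42, SE 0.09, edgeR adjusted p = 0.0242), and Lmnb1, encoding lamin B1, was lower (-0.71, SE 0.15, edgeR adjusted p = 0.0232; over both sexes -0.40, SE 0.10, edgeR adjusted p = 0.0253). The call of Lmna was lost without any 1 of female floxed 1, 2 or 3 and LKO 5, 6 or 8 (edgeR adjusted p 0.0575 to 0.0785). The call of Lmnb1 in females was lost without any 1 of female floxed 1, 2 or 3 and LKO 5 (edgeR adjusted p 0.0617 to 0.0699), and over both sexes without male floxed 3, male LKO 6, female floxed 3 or female LKO 5 (0.0529 to 0.0577). For Lmna the female effect exceeded the male effect by 0.58 (edgeR adjusted p = 0.0246), a call lost under library totals (0.0631), without male floxed 1 and 2 together (0.134) and in 6 of 16 omissions of 1 library.

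Between floxed females and floxed males edgeR called 2 of 30 paraspeckle components, 6 of 23 other hnRNPs, 9 of 18 PTB-related regulators and 2 of 18 matrix and lamina components, beside 22.9% of all genes. Of 17 double-stranded RNA proteins it called 2, 1 higher and 1 lower in females. The PTB-related regulators with the smallest p were Rbfox2 and Esrp2, higher in females, and Mbnl1 and Tia1, lower in females. Those among the hnRNPs were Hnrnpa0 and Ptbp3, higher in females, and Hnrnpab and Syncrip, lower in females. Of the paraspeckle and of the matrix and lamina components, Dazap1 and Lbr were higher in females, and Smarca4 and Ctcf lower in females.

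Near Matr3 on chromosome 18, 12 named genes within 500 kb were tested, with predicted models and genes that overlap Matr3 left out: Ctnna1 and Sil1 on one side, and Paip2, Slc23a1, Mzb1, Prob1, Spata24, Dnajc18, Ecscr, Tmem173, Ube2d2a and Cxxc5 on the other. In males edgeR called 0 of these neighbours, beside 1.04% of all genes, and DESeq2 called 0, beside 518 of 15355 genes. At an unadjusted p under 0.05 there were 2, beside 12.3% of all genes. Their log2 fold changes in males lay between -0.21 and 1.03, and the smallest edgeR adjusted p was 0.178. In females 1 was called, beside 9.29% of all genes, Dnajc18 (0.54, SE 0.13, edgeR adjusted p = 0.0333), and over both sexes 2 were, beside 8.55%, Slc23a1, a vitamin C transporter (0.25, SE 0.07, edgeR adjusted p = 0.0447), and Spata24 (0.51, SE 0.14, edgeR adjusted p = 0.0393). Each of these 3 calls was lost in most omissions of 1 library and under library totals. For Dnajc18 these were female floxed 1, 2 or 3 and LKO 5, 6 or 8 (edgeR adjusted p up to 0.0966). For Slc23a1 the call stayed without male floxed 3, female floxed 1 or female LKO 7 and the adjusted p was at most 0.0978 otherwise. For Spata24 it stayed without male floxed 1, female LKO 6 or female LKO 7 and the adjusted p was at most 0.0910 otherwise. Without male floxed 1 and 2 together the edgeR adjusted p was 0.155 for Slc23a1 and 0.0729 for Spata24.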

How the data were processed

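Whole-number gene counts, deposited by the authors as a male and a female table of 8 libraries each, came from poly(A) RNA extracted with TRIzol and prepared as directional libraries, per the labels' protocols. Per the submitters' processing notes the build is mm10. Neither the aligner nor the counting program and its strand setting is given in the sources used here. The tables held 24623 (males) and 24840 (females) Ensembl identifiers, of which 26 and 28 had no symbol in the mouse annotation.

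Members and gene lists were chosen with earlier results of these data known. Genes that passed filterByExpr (at least 10 counts, total at least 15) were tested two-sided by the quasi-likelihood method of edgeR 4.0.16 under R 4.3.3 after TMM scaling, with Benjamini-Hochberg adjustment over all genes and a call at an adjusted p under 0.05. Each sex was fitted alone. The 16 libraries were also fitted together over the 23167 shared identifiers, for the mean of the sexes' effects, for the female minus the male effect and for floxed females over floxed males. Levels are CPM scaled by TMM over all 16 libraries, and log2 levels used a prior count of 2. Named genes outside the members were Neat1 and Malat1, at most 4 called genes of each list by p, the tested neighbours of Matr3 within 500 kb and the 5 genes most like Matr3 (mean log2 CPM of at least 1). Values were not needed for all of them, and those are named only. Not every gene that this rule names is reported here.

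Alternatives were DESeq2 1.42.0, limma-voom (limma 3.58.1), median-of-ratios, upper quartile and library total scaling, no filter, 1 CPM in 4 libraries, robust dispersion, the 16-library fit, omission of 1 library or of 2 libraries that stand apart, and a block for the replicate number. Each library is 1 mouse. Depth was 30495505 to 36496193 counts. No pair of replicates agreed within counting noise (smallest chi-square per degree of freedom 13.7). The procedure was tested on simulated counts.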

Additional observations from a re-analysis of the deposited data

Results flagged for a closer look

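In 4 of 44 groups of 4 livers 1 liver stood far from the other 3 (the gap to the nearest exceeded 0.829 of the group's range), and chance flags about 1 group in 20. Among female floxed livers these were floxed 4 for Ptbp1, the highest at 106 CPM, floxed 2 for Sfpq, the highest at 66.1 CPM, and floxed 1 for Dhx9, the lowest at 71.0 CPM. Among female LKO livers it was LKO 6 for Nono, the lowest at 105.3 CPM.

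The effect of the knockout differed between the sexes for 4 genes of the lists, by the test of the difference, female minus male, in edgeR. They were 2 of 18 PTB-related regulators and 2 of 18 matrix and lamina components, beside 4.42% of all genes. Of 30 paraspeckle components, 23 other hnRNPs and 17 double-stranded RNA proteins 0 were called. For Srrm4 the difference was 1.98 (SE 0.48, adjusted p = 0.0278). Its call was lost in 8 of 16 omissions of 1 library, with limma-voom (0.107) and without male floxed 1 and 2 together (0.0896). For Lmna it was 0.58 (SE 0.14, adjusted p = 0.0246), lost in 6 of 16 omissions, under library totals (0.0631) and without male floxed 1 and 2 together (0.134). For Elavl1, which encodes the RNA-stabilising protein HuR, it was 0.38 (SE 0.10, adjusted p = 0.0457), lost in 14 of 16 omissions, under upper quartile scaling (0.0526), library totals (0.0968) and no filter (0.0857), and without male floxed 1 and 2 together (0.0970). For Lmnb2, encoding lamin B2, it was -0.54 (SE 0.10, adjusted p = 0.00858), kept in all 16 omissions of 1 library and without male floxed 1 and 2 together.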

How the results depend on the processing

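Of 520 member log2 fold changes refitted under alternatives other than the omission of 1 library, 490 kept their direction and their side of the threshold, 5 lost a call, 13 gained one and 12 changed sign. Of 640 with 1 library left out, 589 kept both. Matr3 kept its call under every alternative run in males, in females and over both sexes. The cause was not tested for any change named here.

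Genes called moved in males to 518 with DESeq2 and 97 in the 16-library fit (160 as reported). In females they moved to 2415 with DESeq2, 3028 without floxed 4 and LKO 7 together and 2854 in the 16-library fit (1433 as reported). Over both sexes they moved to 2902 without that pair (1379 as reported), and for the difference of the effects to 1358 with DESeq2 and 2030 without that pair (713 as reported). The female pair was itself identified on these same libraries. The omission of male floxed 1 and 2 together from the fits of 16 libraries was chosen after seeing the data. It gave 243 genes called for the difference, and 1 member called between floxed females and males (Pspc1; 2 reported). Members called numbered 2 in males without floxed 1 and 2 together, and 2 in females with DESeq2, without floxed 4 and LKO 7 together and in the 16-library fit, where 1 was reported. For the difference they numbered 1 with DESeq2, with the filter of 1 CPM and without floxed 4 and LKO 7 together (0 reported), and over both sexes 1 without a filter (2 reported).

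Without 1 library, genes called ranged from 69 to 179 in males, 396 to 2300 in females, 788 to 2252 over both sexes and 407 to 1435 for the difference. Members called ranged from 1 to 2 over both sexes, 0 to 2 for the difference and 1 to 3 between floxed females and males.

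Male and female livers with the same number did not deviate together (r between -0.12 and 0.13, 2 of 8 numbers closest to their own). With 1 mouse per number in each sex this cannot exclude that the numbers pair mice in some way. With a replicate block, 468 genes were called for the difference (713 as reported), and 1 member between floxed females and males (2 reported), with Ptbp1 at an edgeR adjusted p of 0.0582. For the difference Srrm4 was then at 0.0715 and Elavl1 at 0.0792. No block could be fitted within a sex, where each number occurs once.

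Some signs turned. With library totals these were Hnrnpk (-0.0113) and Dhx9 (-0.00941) in females, and Hnrnpk (-0.0148) and Nono (-0.0405) over both sexes. Nono over both sexes also turned with upper quartile scaling (-0.0147) and the filter of 1 CPM (-0.000629). Without female floxed 4 and LKO 7 together they were Hnrnpl over both sexes (0.00272), Dhx9 for the difference (0.00472) and Matr3 between floxed females and males (-0.0102). Without male floxed 1 and 2 together they were Nono over both sexes (-0.0166), Pspc1 for the difference (0.150) and Matr3 between floxed females and males (-0.0659). Ranges without 1 library that crossed 0 were -0.0321 to 0.0177 for Hnrnpk and -0.147 to 0.0459 for Lmnb1 in males, -0.0553 to 0.0458 for Hnrnpm in females, -0.0123 to 0.0178 for Nono and -0.199 to 0.00497 for Neat1 over both sexes, and -0.192 to 0.119 for Pspc1 for the difference. Between floxed females and males they were -0.0473 to 0.0510 for Matr3 and -0.0234 to 0.0560 for Hnrnpl.

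Library totals lowered the share of higher genes among calls to 26.6% in females (47.8% as reported), 25.8% over both sexes (47.4%) and 22.5% for the difference (44.6%), and raised it to 66.9% between floxed females and males (49.4%), where upper quartile scaling gave 60.1%. Pspc1 and Ptbp2, at 131 to 420 counts per library, have the widest counting error.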
